A study of Rattus norvegicus with 4 samples.

Results

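The adrenergic receptors are the cell surface receptors for noradrenaline and adrenaline, and the 8 described here are Adra1a, Adra1b, Adra1d, Adra2a, Adra2b, Adra2c, Adrb1 and Adrb3. They were taken by symbol from the gene table of the deposited matrices and make up 8 of its 32883 genes. Their counts were summed per library over nuclei gated into 6 classes by marker genes, and none of the receptors took part in the gating. Nuclear RNA had been profiled from 2 libraries of thoracic aortic perivascular adipose tissue (taPVAT), the fat around the thoracic aorta, and 2 libraries of subscapular brown adipose tissue (BAT), a classical brown fat depot. All 4 came from naive male Dahl salt-sensitive rats (SS/HsdMcwiCrl), an inbred strain used as a model of salt-sensitive hypertension, aged 16 weeks and housed at 22 °C. About 50 mg of snap-frozen tissue per sample was used, with a target of 10000 nuclei, and no group had received a treatment. Whether a taPVAT and a BAT library shared an animal is not in the labels, so p-values between the tissues measure only the spread between these libraries.

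Noradrenaline released by sympathetic nerves reaches both the adipocytes and the vessels of brown fat. The alpha-1 receptors (Adra1a, Adra1b, Adra1d) act through Gq, phospholipase C and calcium, and contract vascular smooth muscle. The alpha-2 receptors (Adra2a, Adra2b, Adra2c) act through Gi and lower cyclic AMP. The beta receptors (Adrb1, Adrb3) act through Gs and raise cyclic AMP, and in brown adipocytes Adrb3 is the best known trigger of lipolysis and heat production.

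Of the 8 receptors, 6 had a promoter in the RefSeq table (build GRCr8), from which the 250 bases before the annotated start were read. Of these, 3 are shown because their RNA was spread over the classes in 3 different ways: in few classes (Adra1b), high in pericytes beside adipocytes (Adra1d), and at a low level that followed the replicate number (Adrb1). Capitals mark matches, on either strand, to one of 6 motifs: TATAAA (the TATA box), CCAAT (bound by NF-Y), GGGCGG (bound by Sp factors), TGACG (the core of the cyclic AMP response element), CANNTG (the E-box) and the CArG box (bound by serum response factor). Adra1b lies at chr10:28814348-28814597 on the minus strand, Adra1d at chr3:139262332-139262581 on the minus strand and Adrb1 at chr1:265776853-265777102 on the plus strand.
Adra1b: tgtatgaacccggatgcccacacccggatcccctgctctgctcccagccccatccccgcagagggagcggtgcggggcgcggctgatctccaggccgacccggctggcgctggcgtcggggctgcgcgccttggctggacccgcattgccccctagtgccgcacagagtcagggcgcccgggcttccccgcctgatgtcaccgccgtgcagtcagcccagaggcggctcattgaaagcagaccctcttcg
Adra1d: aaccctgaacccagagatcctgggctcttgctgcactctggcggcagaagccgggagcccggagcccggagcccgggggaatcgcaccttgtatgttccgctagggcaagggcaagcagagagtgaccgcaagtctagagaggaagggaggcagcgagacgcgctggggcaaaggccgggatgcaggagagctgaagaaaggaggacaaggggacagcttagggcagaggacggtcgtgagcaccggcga
Adrb1: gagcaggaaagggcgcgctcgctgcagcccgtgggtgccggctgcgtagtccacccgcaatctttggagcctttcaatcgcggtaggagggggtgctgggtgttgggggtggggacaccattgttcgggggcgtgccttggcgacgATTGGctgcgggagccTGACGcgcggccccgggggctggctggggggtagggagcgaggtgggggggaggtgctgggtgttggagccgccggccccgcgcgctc
Of these 3, only Adrb1 held a match, to CCAAT 104 bases before the start and to TGACG 88 bases before it. Matches to CCAAT are held by 34.0% and matches to TGACG by 18.2% of all 33469 promoters of that length. The 3 alpha-2 receptor promoters held matches to GGGCGG (Adra2b and Adra2c) or CANNTG (Adra2a and Adra2c), which 30.5% and 65.5% of promoters hold. TATAAA (12.9% of promoters) and the CArG box (1.497%) were found in none of the 6. The GC content of the 6 stretches was between 64% and 80.4%. No matches overlapped, and the CCAAT match of Adrb1 is on the opposite strand (ATTGG as printed). A match is a run of letters and not a shown binding site.

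The files held 14765 to 44637 barcodes and 63654436 to 158140959 counts of unique molecular identifiers (UMIs) per library, with medians of 2602 to 4027 UMIs per barcode. Between 126 and 424 barcodes occurred in both libraries of a pair. After filtering and doublet removal 100707 nuclei were kept, and 86278 of them fell into the 6 classes. A class name here means nuclei that resemble that cell type by their markers (adipocyte-like, fibroblast-like and so on). Adipocyte nuclei numbered 8522 to 27020 per library, endothelial 502 to 3240, pericyte 338 to 969, fibroblast 277 to 823, macrophage 257 to 425 and smooth muscle 15 to 150, the 15 being in taPVAT replicate 2. Levels are given as CPM, the UMIs of a gene per 1000000 UMIs of the class in that library. Where 4 values are given in a row, the order is taPVAT library 1, taPVAT library 2, BAT library 1, BAT library 2. CPM is not scaled for gene length, so levels are compared between classes and libraries and not between receptors. In class sums, fewer nuclei that express a gene and less RNA per nucleus cannot be told apart.

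Each class carried its own markers in every library, which the gate on the same markers required and which is no separate evidence of its identity. All of the classes carried adipocyte RNA. The summed level of 11 adipocyte markers was 19915 to 21209 CPM in adipocytes and still 7074 to 16491 CPM over the other 5 classes. Smooth muscle markers (9 genes) summed to 6608 to 11954 CPM in smooth muscle and to at most 981 CPM elsewhere. To read a receptor outside adipocytes, its level was therefore set beside 10 adipocyte genes that took no part in the gating, among them Plin4, Plin5 and Cidea. The median of these 10, as a share of the adipocyte level of the same library, was 33.9% to 71.7% in fibroblasts, 37.1% to 68.3% in smooth muscle, 55.8% to 77.1% in pericytes, 53.2% to 73.1% in endothelial nuclei and 59.5% to 82.0% in macrophages. Depth also differed between classes, with median UMIs per nucleus of 2822 to 4909 in adipocytes and 1861 to 2947 in the other classes.

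The receptor UMIs were very unequal. Over the 24 sums of 4 libraries and 6 classes there were 659656 UMIs of Adra1a, 80428 of Adrb3 and 22355 of Adra1d. Adrb1 had 772 UMIs, Adra1b 76, Adra2a 17, Adra2b 13 and Adra2c 6. The first 3 could be followed in every class, while the alpha-2 receptors were at the limit of what these libraries can count.

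**Figure D1:**
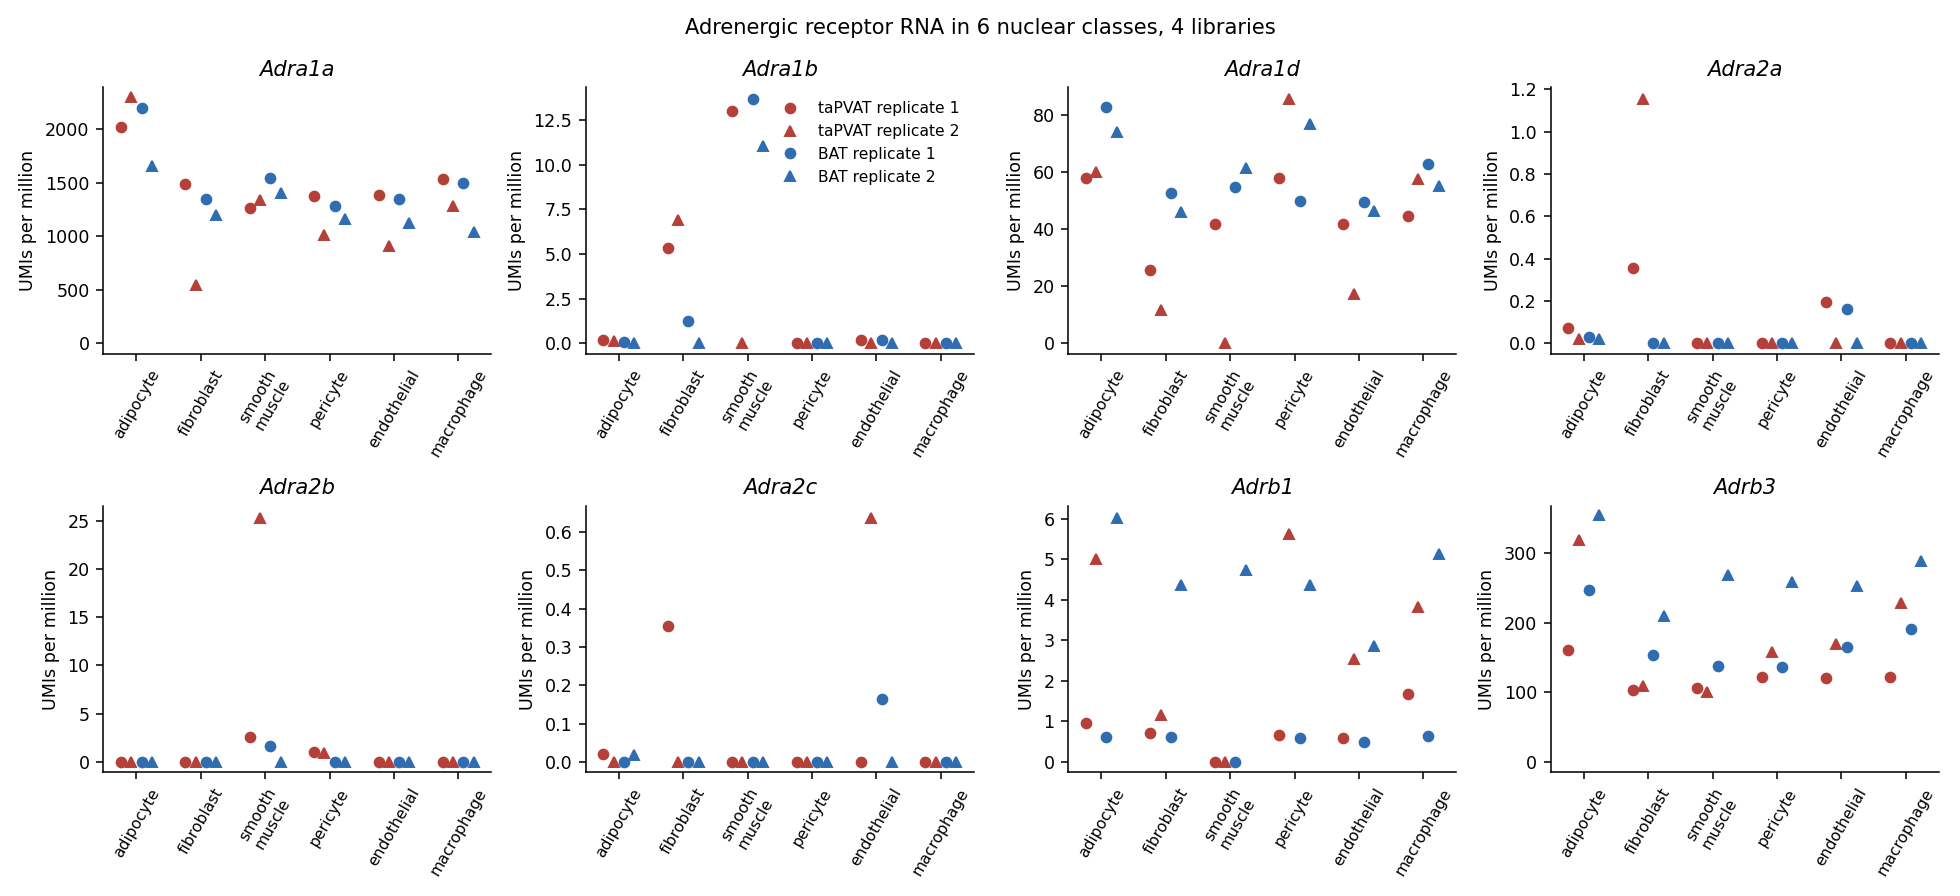
Level of each of the 8 receptors in CPM (vertical axis) in the 6 classes (horizontal axis), 1 panel per receptor and 1 point per library, taPVAT and BAT in separate colours. Adra1a and Adrb3 are highest in adipocytes, Adra1d is as high in pericytes, and Adra1b is seen mainly in smooth muscle and fibroblasts.

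Adra1a (ENSRNOG00000009522), the alpha-1A receptor, was highest in adipocytes in both depots. Its level in adipocytes was 2019, 2303, 2199 and 1654 CPM (mean 2044 ± 285 CPM, SD, n = 4). The 4 values of the next class, smooth muscle, were 1260, 1339, 1545 and 1406 CPM. Adipocytes were above smooth muscle in 4 of 4 libraries, without overlap. The order below that, macrophages (mean 1338 CPM), pericytes (1210), endothelial nuclei (1191) and fibroblasts (1145), was between neighbours that overlapped.

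Across all 6 classes the edgeR quasi-likelihood test, with the library as a term, compared each class with the mean of the other 5. In adipocytes 28.7% of the 10859 genes tested were called higher and 28.3% lower at an adjusted p of 0.05, so a call there is common. Of the receptors, 4 passed the filter on low counts (Adra1a, Adra1b, Adra1d and Adrb3), and 3 of them were called higher in adipocytes. For Adra1a the log2 fold change was 0.89 (SE 0.13, adjusted p = 5.5e-06 by edgeR), and the call held in 9 of 9 alternatives. No other class had a called difference in Adra1a, with adjusted p-values from 0.0678 in fibroblasts to 0.999 in smooth muscle by edgeR. In fibroblasts it was called lower in 1 of 9 alternatives, with no filter on low counts (log2 fold change -0.39, adjusted p = 0.00237 by edgeR).

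Outside adipocytes, Adra1a was set beside the 10 adipocyte genes. Its share of the adipocyte level was 44.0% to 70.4% in pericytes, 39.6% to 68.6% in endothelial nuclei and 55.8% to 76.1% in macrophages, at or below the median of the 10 adipocyte genes in 4 of 4 libraries of each. In fibroblasts it was 23.8% to 73.5%, above that median in 2 of 4 libraries. In smooth muscle it was 58.2% to 85.0%, above the median in 3 of 4 libraries and above all 10 genes in 1. In nuclei classed by clustering instead of gates, which carried less adipocyte RNA, Adra1a in pericytes was 448, 143, 311 and 231 CPM, 6.21% to 21.8% of the adipocyte level. With classes from clusters Adra1a was called lower in pericytes (log2 fold change -1.78, adjusted p = 5.1e-06 by edgeR) and endothelial nuclei (-1.26, adjusted p = 0.000154) and higher in macrophages (0.80, adjusted p = 0.00396). The median of the 10 adipocyte genes followed the same order, at 21.6% to 43.3% of the adipocyte level in pericyte clusters, 25.9% to 47.0% in endothelial clusters and 58.5% to 79.1% in macrophage clusters. How much of the Adra1a RNA in each of these classes was their own was not tested further.

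**Figure D2:**
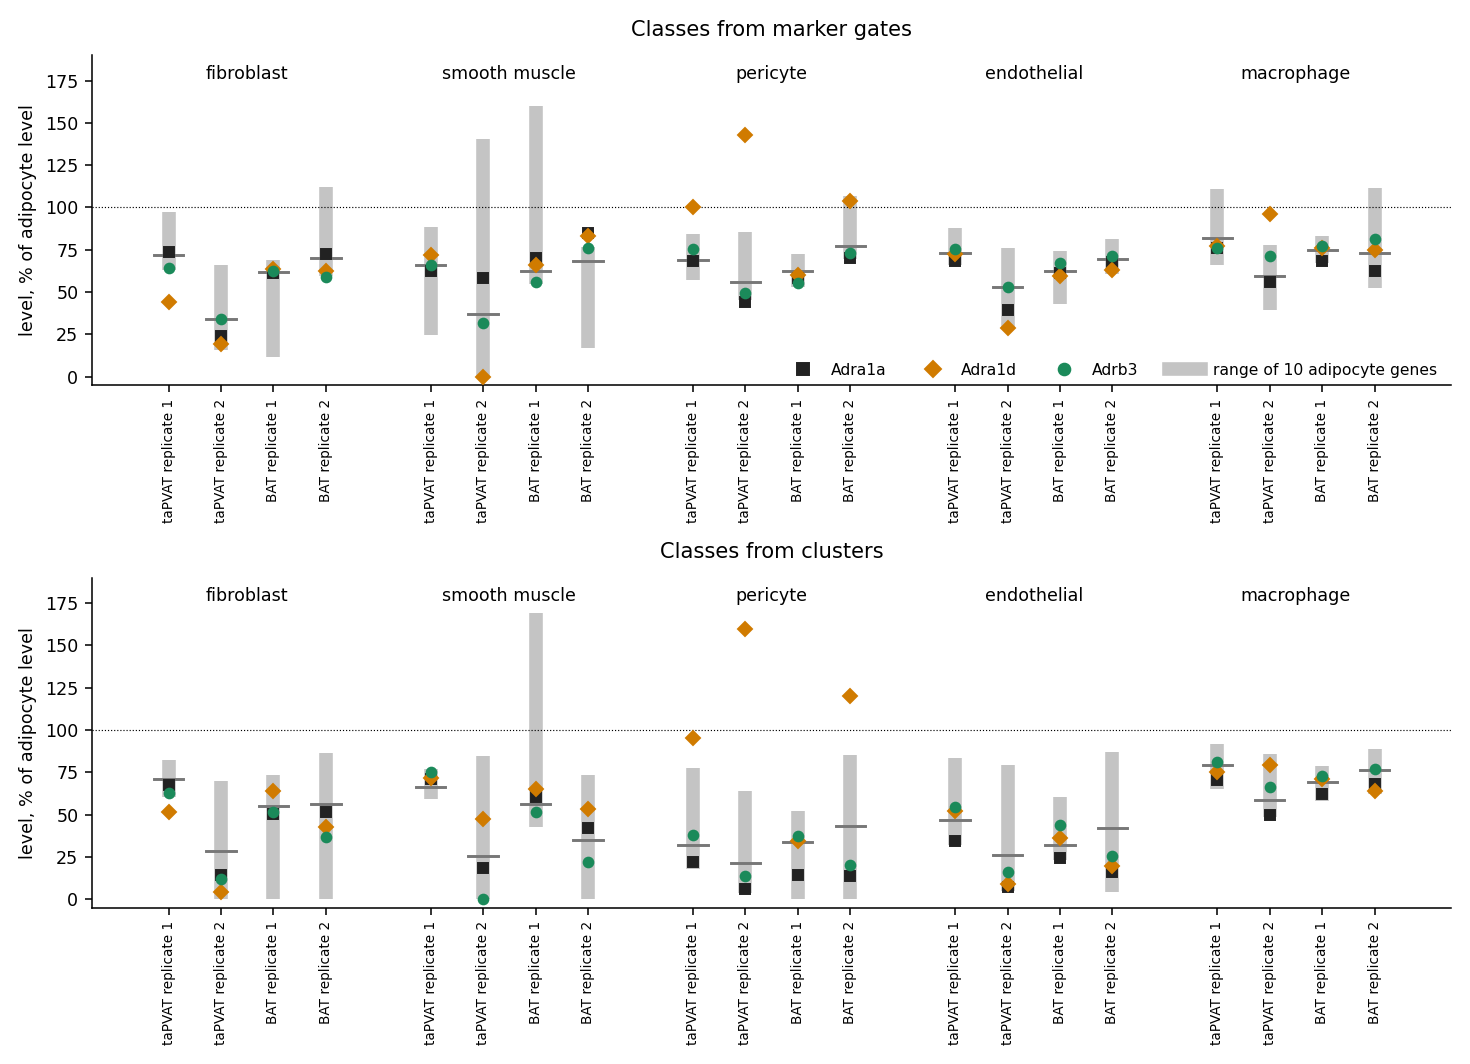
Level of Adra1a, Adra1d and Adrb3 in the 5 other classes as a percent of the adipocyte level of the same library (vertical axis), by class and library (horizontal axis), for gated classes (top) and clusters (bottom). Grey bars are the range of 10 adipocyte genes and ticks their median; Adra1d in pericytes stands above the bar in 2 of 4 libraries by gates and in 3 of 4 by clusters, while Adra1a and Adrb3 in pericytes do not.

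Most adipocyte nuclei held Adra1a. When each nucleus was thinned to 1000 UMIs, leaving out 11 to 491 shallower nuclei per library, at least 1 Adra1a UMI was found in 79.0% and 77.3% of nuclei in taPVAT and 80.3% and 69.0% in BAT. Without thinning the shares were 93.0%, 94.2%, 94.4% and 87.7%. All 4 libraries were high, and BAT replicate 2 was the lowest on either measure. Adra1a was also found at lower levels in every other class, and what part RNA from other nuclei has in these shares was not tested.

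Within a library, Adra1a was compared between adipocyte nuclei with no UMI and with 3 or more UMIs of Ucp1, the uncoupling protein of brown fat, after the same thinning. In BAT replicate 1 the levels were 1782 CPM (95% Poisson interval 1749 to 1816, counting error only) and 2163 CPM (2121 to 2206). In taPVAT replicate 1 they were 1794 CPM (1769 to 1819) and 1948 CPM (1894 to 2003). In taPVAT replicate 2 and BAT replicate 2 the intervals overlapped (2166 and 2220 CPM, 1497 and 1526 CPM). Nuclei with 1 or 2 Ucp1 UMIs were at 1893 CPM (1869 to 1917), 2124 (2068 to 2181), 2095 (2067 to 2123) and 1608 (1576 to 1640). Against nuclei without Ucp1, these were above beyond counting error in 3 of 4 libraries, all but taPVAT replicate 2, and those with 3 or more UMIs in both libraries numbered 1. With nuclei of 1 library no test over animals was made.

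The adipocyte cluster richest in Kcnip1 (a potassium channel-interacting protein) had less Adra1a than the other adipocyte clusters pooled, in each of the 4 libraries. In each library the cluster with the highest Kcnip1 was taken, the receptors having been left out of the clustering. This was cluster 9 in both libraries numbered 1 and cluster 13 in both numbered 2, so no single cluster was followed through all 4. They held 1541, 687, 1961 and 1700 nuclei, 5.47% to 9.37% of the clustered adipocytes. Adra1a was 742, 826, 588 and 874 CPM there against 2092, 2385, 2304 and 1738 CPM in the other adipocyte clusters. The highest of the first was below the lowest of the second, which pools the other clusters. Adrb3 did not separate the same way, at 248, 279, 313 and 311 CPM in these clusters against 159, 322, 245 and 366 CPM outside them, and Adra1d was 0.607 to 0.959 times the outside level. Ucp1 was 0.229 to 0.497 times, Tshr, the thyrotropin receptor, 10.95 to 17.5 times and Adipoq (adiponectin) 1.62 to 2.79 times the outside level. Their nuclei were shallower, with medians of 1951 to 3059 UMIs against 2841 to 5095, and had more mitochondrial UMIs, 9.85% to 11.5% against 5.99% to 9.71%. The pooled clusters were not alike. Cluster 16, also rich in Kcnip1 (781 CPM in taPVAT replicate 1, 1532 in BAT replicate 1), had Adra1a at 1832 and 1847 CPM there. Cluster 8, with Kcnip1 at 19.6 to 94.2 CPM, had Adra1a at 1405, 978, 1389 and 592 CPM. The 978 and 592 CPM come from 88 and 159 nuclei. Low Adra1a was thus neither found in every Kcnip1-rich cluster nor only there. The part of depth and mitochondrial RNA in the lower Adra1a was not tested.

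**Figure D3:**
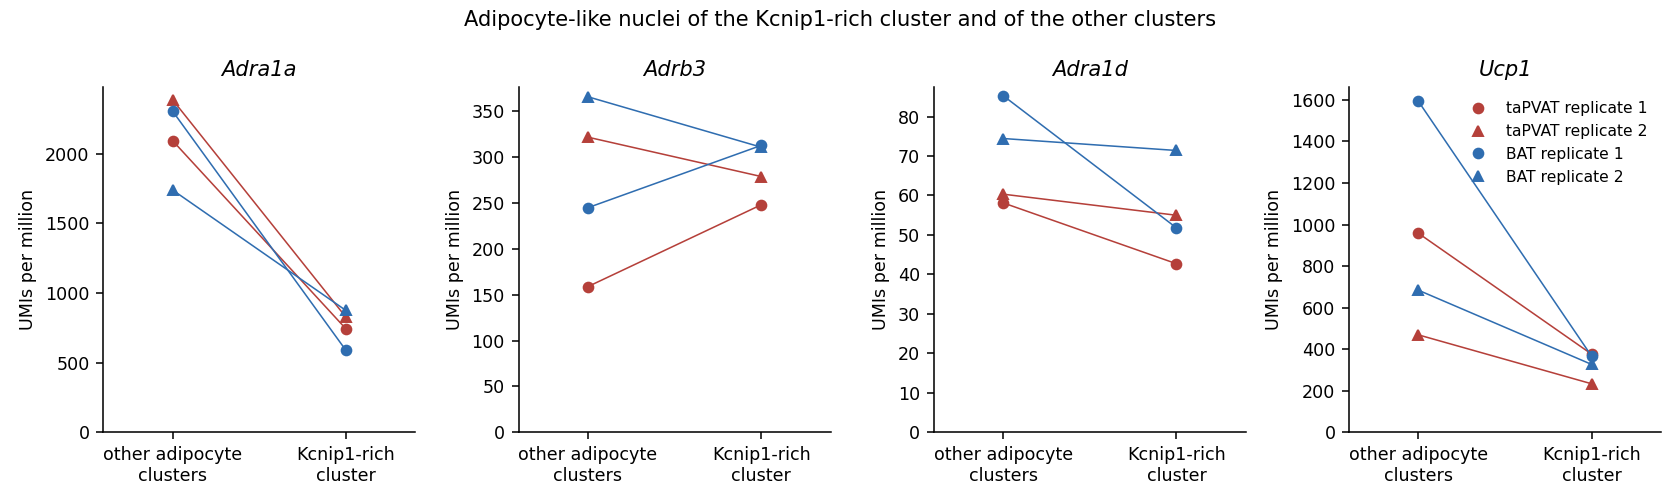
Level in CPM (vertical axis) of Adra1a, Adrb3, Adra1d and Ucp1, 1 panel each, in the adipocyte cluster richest in Kcnip1 of each library (cluster 9 in libraries numbered 1, cluster 13 in those numbered 2) and in all other adipocyte clusters, 1 point per library. Adra1a and Ucp1 are lower in the cluster richest in Kcnip1 than in the other clusters pooled in 4 of 4 libraries. Adrb3 is higher in 2 and lower in 2.

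Adra1d (ENSRNOG00000021256), the alpha-1D receptor of large arteries, had its highest mean levels in adipocytes and pericytes. In adipocytes it was 57.7 and 59.8 CPM in taPVAT and 82.7 and 73.8 CPM in BAT, and in pericytes 57.9 and 85.3 CPM in taPVAT and 49.8 and 76.8 CPM in BAT. The 2 classes overlapped throughout, with means of 68.5 and 67.5 CPM. Macrophages, next at a mean of 54.9 CPM, overlapped with pericytes. Adra1d was called higher in adipocytes than in the mean of the other classes (log2 fold change 0.66, SE 0.17, adjusted p = 0.00169 by edgeR), in 9 of 9 alternatives. In pericytes, where 11.2% of genes were called higher and 4.69% lower, its log2 fold change of 0.53 (SE 0.19) missed the threshold (adjusted p = 0.0646 by edgeR). It passed in 5 of 9 alternatives there, with an adjusted p of 0.0265 by edgeR when classes came from clusters.

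In pericytes Adra1d stood at 100%, 143%, 60.2% and 104% of the adipocyte level of its library. This was above the median of the 10 adipocyte genes in 3 of 4 libraries and above all 10 in both taPVAT libraries, while the value of BAT replicate 1 lay inside their range and below their median. Other classes were also above that median in 3 of 4 libraries and above all 10 genes in 1, macrophages at 74.7% to 96.0% and smooth muscle at 0% to 83.3%. Adra1a, measured in the same nuclei, stood at 68.3%, 44.0%, 58.3% and 70.4%. In the pericyte clusters the gap was wider: Adra1d stood at 95.5%, 160%, 34.1% and 120% of the adipocyte level and Adra1a at 21.8%, 6.21%, 14.02% and 13.9%. In BAT replicate 1, the lowest in Adra1d, the 2 shares came closest.

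Pericytes were also split by how many of the 11 adipocyte markers they held, a division chosen after the values were seen. Those with 0 to 3 of them were few, 27, 58, 16 and 55 nuclei, with 4, 8, 2 and 10 Adra1d UMIs, or 118, 81.4, 89.97 and 129 CPM. Adra1a in the same nuclei was 296, 132, 675 and 129 CPM, below the level of all pericytes in each library, while Adra1d was above it in 3 of 4. Under the same limit Adra1d was 11.7, 7.92, 66.4 and 9.40 CPM in endothelial nuclei, above the level of the whole class in 1 of 4 libraries. Fibroblasts were at 38.3, 0, 74.3 and 16.7 CPM on at most 1 UMI each, above the whole class in 2 of 4, and smooth muscle had 3 UMIs in BAT replicate 2 (83.3 CPM, above the whole class) and none elsewhere. Macrophages had 3 UMIs in taPVAT replicate 2 (24.7 CPM) and none elsewhere. A level above that of the whole class was thus also found outside pericytes, and these counts are too small to compare the classes.

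In fibroblasts Adra1d was 25.6 and 11.5 CPM in taPVAT and 52.7 and 45.9 CPM in BAT. It was called lower there than in the other classes (log2 fold change -0.75, SE 0.22, adjusted p = 0.0149 by edgeR), beside 10.9% of genes called lower and 14.9% called higher in fibroblasts. The call was lost without taPVAT replicate 1 (adjusted p = 0.102), without BAT replicate 2 (0.0567) and with classes from clusters (0.170), all by edgeR. In smooth muscle Adra1d was 41.6, 0, 54.6 and 61.5 CPM, where the 0 rests on 39569 UMIs and allows up to 75.8 CPM. Endothelial nuclei held 41.9, 17.2, 49.3 and 46.5 CPM and macrophages 44.4, 57.4, 62.8 and 55.1 CPM, with no called difference in either class (adjusted p = 0.122 and 0.949 by edgeR). With classes from clusters Adra1d was called lower in endothelial nuclei (log2 fold change -1.20, adjusted p = 0.00171 by edgeR).

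Adra1b (ENSRNOG00000060087), the alpha-1B receptor, had few UMIs, and these lay mostly in smooth muscle and fibroblasts. Smooth muscle held 5 and 0 UMIs in taPVAT and 8 and 7 in BAT, or 12.99, 0, 13.7 and 11.03 CPM. The library at 0 had 15 smooth muscle nuclei, and its count allows up to 75.8 CPM (3 UMIs of that library's class sum). Adipocytes held 16, 6, 7 and 1 UMIs, at 0.162, 0.132, 0.0728 and 0.0189 CPM, and pericytes and macrophages held none in any library. Summed over libraries, smooth muscle was at 12.2 CPM, 119 times the adipocyte level, at least 30.8-fold higher than pericytes and at least 18.6-fold higher than macrophages, the bounds taken from 3 UMIs over the class.

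Adra1b was called higher in smooth muscle (adjusted p = 1.9e-06 by edgeR) and in fibroblasts (adjusted p = 0.000262 by edgeR). It passed the filter on low counts only through sums of these 2 classes, every sum of the other 4 classes being at or below 0.195 CPM, so the filtered fits had to show it higher there and are not support for the difference. With no filter the adjusted p was 2.9e-13 in smooth muscle and 1.8e-06 in fibroblasts by edgeR, and without BAT replicate 1 the gene did not pass the filter. In the filtered fit 7.95% of genes were called higher and 2.52% lower in smooth muscle, and 14.9% and 10.9% in fibroblasts. With no filter 992 of 22866 genes were called higher and 816 lower in smooth muscle, and 2049 and 1290 in fibroblasts. The fitted fold changes depend on the prior count, since 2 classes had no UMI, and are not given. Adipocytes lay at or below 0.162 CPM of Adra1b, and what part adipocyte RNA has in the Adra1b of the other classes was not tested. By RefSeq names, Adra1b overlaps a long noncoding RNA gene (LOC108352076), and its UMIs are uncertain in that respect, the strand setting of the counting being not given in the sources used here. None of the other 7 receptors overlaps another gene in that table.

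In fibroblasts Adra1b had 15 and 6 UMIs in taPVAT and 2 and 0 in BAT, or 5.32 CPM (95% Poisson interval 2.98 to 8.78), 6.91 (2.54 to 15.04), 1.24 (0.1501 to 4.48) and 0 (up to 4.03). The taPVAT libraries were both above the BAT libraries (6.12 ± 1.12 against 0.620 ± 0.876 CPM, SD, n = 2 each). With classes from clusters they were so too (8.27 ± 5.16 against 1.78 ± 2.51 CPM). The ratio of taPVAT to BAT for the libraries numbered 1 fell from 4.30 by gates to 1.30 by clusters. Among the genes tested in fibroblasts 13.2% had taPVAT above BAT without overlap. The exact two-sided permutation p was 0.333, the smallest that 2 against 2 libraries allow. Adra1b was below the filter of the edgeR test between tissues, and without that filter its log2 fold change was 2.80 (SE 1.07, adjusted p = 0.475 by edgeR).

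Adipocytes had the same order at a far lower level, 22 Adra1b UMIs in taPVAT and 8 in BAT, as did 9.06% of the genes tested there. With classes from clusters the adipocyte counts were 14 and 10 UMIs and the tissues overlapped.

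Mesothelial markers moved with that difference. The mesothelium is the flat cell layer that covers organs in the body cavities, and 8 of its markers summed to 62.8 and 128 CPM in taPVAT fibroblasts against 1.24 and 2.19 CPM in BAT fibroblasts, with 1 of the 8 at 0. In adipocytes they summed to 6.33 and 2.75 CPM in taPVAT and 1.61 and 1.41 CPM in BAT. In fibroblast nuclei without any of these markers Adra1b was 3.01 CPM (1.21 to 6.20) and 4.32 (0.890 to 12.6) in taPVAT, and 1.25 (0.151 to 4.51) and 0 (up to 4.09) in BAT. These values rest on 7, 3, 2 and 0 UMIs, and their intervals overlap. Leaving out the fibroblast nuclei that clustered as mesothelial, 9 and 3 in the taPVAT libraries and none in BAT, gave 5.40 and 5.82 CPM in taPVAT, on 15 and 5 UMIs, and the same values as before in BAT. What further part mesothelial RNA has in the Adra1b of taPVAT fibroblasts was not tested. In smooth muscle, where the same markers summed to 0 to 4.73 CPM, Adra1b was 13.1, 0, 13.8 and 11.2 CPM in nuclei without them, against 12.99, 0, 13.7 and 11.03 CPM in all.

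Nuclei in mesothelial clusters occurred in both taPVAT libraries (437 and 78 nuclei) and in neither BAT library. There Adra1b reached 34 UMIs (25.1 CPM, 95% Poisson interval 17.4 to 35.0) and 15 UMIs (70.6 CPM, 39.5 to 116). By the same clustering smooth muscle was at 14.4, 0, 14.6 and 18.2 CPM and fibroblasts at 4.62, 11.9, 3.55 and 0 CPM. The mesothelial value of taPVAT replicate 2 was the highest seen by clusters, and that of replicate 1 overlapped smooth muscle of the same library in its interval. By gates the 2 taPVAT libraries were at 27.3 to 29.2 CPM, on 4 UMIs in 48 mesothelial nuclei, and replicate 2 did not stand out. Summed over libraries, the mesothelial clusters were at 31.2 CPM and smooth muscle at 15.01 CPM.

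**Figure D4:**
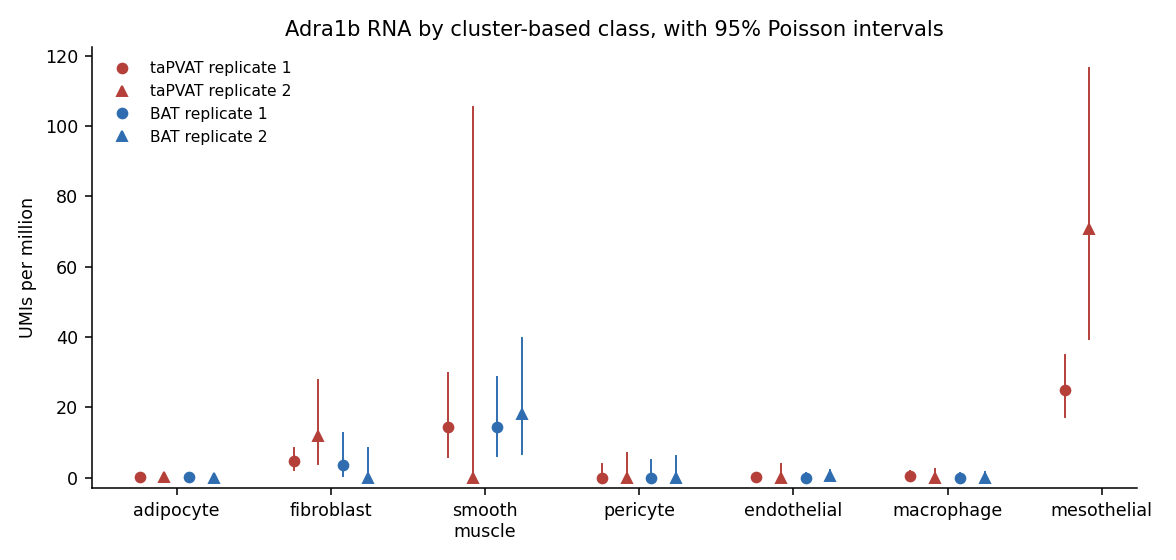
Level of Adra1b in CPM (vertical axis) in the classes taken from clusters and in mesothelial clusters (horizontal axis), 1 point per library with its 95% Poisson interval. Mesothelial clusters, which occur in taPVAT only, reach 25.1 and 70.6 CPM, and smooth muscle 14.4 to 18.2 CPM in 3 of 4 libraries.

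The alpha-2 receptors were barely detected in any class. Adra2a (ENSRNOG00000047545), which restrains lipolysis in white fat, had 7, 1, 3 and 1 UMIs in adipocytes, a level of at most 0.0709 CPM. Its other 5 UMIs were in fibroblasts (1 and 1, both in taPVAT) and endothelial nuclei (2 in taPVAT replicate 1 and 1 in BAT replicate 1). Adra2b (ENSRNOG00000013887), a constrictor receptor of small vessels, had 2, 1, 2 and 1 UMIs in adipocytes, and 4 in pericytes and 3 in smooth muscle. Adra2c (ENSRNOG00000009299) had 3 UMIs in adipocytes, 2 in endothelial nuclei and 1 in fibroblasts. Adipocytes, with 45452024 to 98698287 UMIs per library, set the tightest limits, so that a count of 0 there allows at most 0.0304 to 0.0660 CPM. In smooth muscle a count of 0 allows 4.73 to 75.8 CPM, so these data do not limit an alpha-2 receptor there as tightly.

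Adrb3 (ENSRNOG00000012674), the beta-3 receptor, was also highest in adipocytes. It was 162 and 320 CPM in taPVAT and 247 and 356 CPM in BAT (mean 271 ± 85.8, SD, n = 4). Macrophages, next in order, were at 122, 229, 191 and 290 CPM. The ranges overlapped because libraries differed more than classes, yet adipocytes were above macrophages within 4 of 4 libraries. The log2 fold change of adipocytes over the other classes was 0.80 (SE 0.098, adjusted p = 4.2e-07 by edgeR), in 9 of 9 alternatives.

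Outside adipocytes Adrb3 stayed inside the range of the 10 adipocyte genes in all but 1 library and class. It was 104, 109, 154 and 210 CPM in fibroblasts, 107, 101, 138 and 269 in smooth muscle, 122, 158, 137 and 259 in pericytes and 121, 170, 166 and 253 in endothelial nuclei. The exception was a fibroblast value below the range. Adrb3 was called lower in fibroblasts (log2 fold change -0.46, SE 0.12, adjusted p = 0.00453 by edgeR). That call was lost without BAT replicate 2 (adjusted p = 0.0540) and with classes from clusters (0.292), both by edgeR. Clusters gave called values in the 3 classes that also moved for Adra1a, lower in pericytes (-0.94, adjusted p = 0.00669 by edgeR) and endothelial nuclei (-0.61, adjusted p = 0.0327) and higher in macrophages (0.75, adjusted p = 0.00657).

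After thinning to 1000 UMIs, Adrb3 was found in 15.3% and 26.1% of adipocyte nuclei in taPVAT and 22.1% and 27.5% in BAT. Unthinned, the shares were 40.7%, 68.5%, 60.4% and 56.5%. The other classes, which carried adipocyte RNA, had Adrb3 in fewer nuclei at equal depth. Macrophages were at 10.9%, 10.7%, 14.2% and 19.2% and endothelial nuclei at 10.2%, 8.15%, 12.2% and 14.6%, with median depths before thinning of 1861 to 2466.5 and 1909 to 2059 UMIs against 2821.5 to 4908.5 in adipocytes. What part RNA from other nuclei has in these shares was not tested. In each tissue the library numbered 2 was above the one numbered 1 at equal depth. Both libraries numbered 2 were above both numbered 1 for 26% of the genes tested in adipocytes. Nuclei with an Adrb3 UMI and those without had similar Adra1a, at 1842, 2227, 1976 and 1575 CPM in those with one and 1859, 2129, 2029 and 1526 CPM in those without. Adra1a was higher in the nuclei with an Adrb3 UMI in both libraries numbered 2 and lower in both numbered 1, by little in each.

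Adrb1 (ENSRNOG00000017002), the beta-1 receptor, which is abundant in heart, was rare and followed the replicate number rather than the tissue. Adipocytes held 96 and 228 UMIs in taPVAT and 60 and 319 in BAT, or 0.973, 5.02, 0.624 and 6.02 CPM. In both tissues the library numbered 2 was far above the one numbered 1, a split shared with the 26% of adipocyte genes given for Adrb3. It was shared by 6 of the 9 targets of beta-adrenergic signalling in adipocytes, of which 3 are named here after their values were seen. Ppargc1a, a coactivator of mitochondrial genes, was at 3142, 14088, 1524 and 12154 CPM, Nr4a3, a nuclear receptor, at 46.8, 194, 35.6 and 239.9 CPM, and Dio2, the deiodinase that activates thyroid hormone, at 2.83, 13.4, 1.73 and 13.4 CPM. Ucp1 went the other way, at 942, 458, 1532 and 659 CPM. What sets the libraries of the same number apart was not tested. Pericytes showed the same split with 0.662, 5.62, 0.6004 and 4.36 CPM, on 1 to 8 UMIs each, as did 20.3% of the genes tested there. Endothelial nuclei, macrophages and fibroblasts had the same order, on 30, 11 and 8 UMIs in all. Adrb1 was 68.1% to 112% of the adipocyte level in pericytes and 47.4% to 78.7% in endothelial nuclei. It was 76.3% to 172% in macrophages and 23.0% to 99.3% in fibroblasts. The part of adipocyte RNA in the split of these classes was not tested. Smooth muscle held 3 UMIs in all, all in BAT replicate 2.

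Between taPVAT and BAT no receptor passed the test in any class. In adipocytes 0 of 15471 genes were called (0%), 321 reached an unadjusted p under 0.05 by edgeR, and DESeq2 called 62. Of the 8 receptors 4 passed the filter there. Adra1a had a log2 fold change, taPVAT over BAT, of 0.22 (SE 0.31), Adra1d of -0.37 (SE 0.25), Adrb1 of -0.11 (SE 1.16) and Adrb3 of -0.27 (SE 0.44), each with an adjusted p of 0.99999 by edgeR. None was called in any of 10 alternatives. With 2 libraries a tissue, a missed threshold does not show that the depots carry equal levels.

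Of these 4, Adra1d was the one whose adipocyte levels did not overlap between the tissues, with both taPVAT libraries (57.7 and 59.8 CPM) below both BAT libraries (82.7 and 73.8 CPM). The ratio of taPVAT to BAT was 0.698 for the libraries numbered 1 and 0.810 for those numbered 2. Among all genes tested in adipocytes 10.7% had taPVAT below BAT in this way. The log2 fold change stayed between -0.45 and -0.34 over the 10 alternatives. Adra1a had ratios of 0.918 and 1.39, Adrb3 of 0.653 and 0.898 and Adrb1 of 1.56 and 0.834, and their tissues overlapped.

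The largest fitted difference between the tissues among the receptors tested was in fibroblasts. Adra1d was 18.5 ± 9.93 CPM in taPVAT and 49.3 ± 4.77 CPM in BAT (SD, n = 2 each), without overlap, as for 11.2% of genes lower in taPVAT. Its log2 fold change was -1.35 (SE 0.44, adjusted p = 0.854 by edgeR), beside 0.0658% of 9121 genes called. Leaving out taPVAT replicate 1 gave -2.12 and leaving out taPVAT replicate 2 gave -0.96, and classes from clusters gave -1.07, so the size of the difference rests on which taPVAT library is kept. Adipocyte RNA in fibroblasts differed between the libraries too. The median of the 10 adipocyte genes ran from 33.9% to 71.7% of the adipocyte level, and Adra1d lay below all 10 of them in 1 of 4 libraries. Its part in the Adra1d difference was not tested. Adrb3 lay lower in taPVAT without overlap in fibroblasts (104 and 109 against 154 and 210 CPM) and, as did 13.2% of genes, in smooth muscle (107 and 101 against 138 and 269 CPM). The 101 CPM rests on 4 UMIs in 15 nuclei, and with classes from clusters the smooth muscle values overlapped (122, 0, 127 and 79.0 CPM). By edgeR the adjusted p of Adrb3 was 0.99994 in fibroblasts and 0.9997 in smooth muscle.

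In gated classes Adra1d also lay lower in taPVAT without overlap in smooth muscle, where 13.2% of genes did, and in endothelial nuclei, where 8.68% did. The smooth muscle value of taPVAT replicate 2 is the 0 that allows up to 75.8 CPM, which is above both BAT values. With classes from clusters the tissues overlapped in both, at 41.2, 28.6, 54.6 and 39.5 CPM in smooth muscle and 29.9, 5.40, 30.3 and 14.5 CPM in endothelial nuclei. In gated smooth muscle Adra1a lay lower in taPVAT without overlap too (1300 ± 56.0 against 1475 ± 98.3 CPM, SD, n = 2 each). With clusters its tissues overlapped (942 ± 725 against 1018 ± 456 CPM). None of 6447 genes in smooth muscle, 9556 in pericytes, 11998 in endothelial nuclei and 8918 in macrophages was called between the tissues by edgeR (0% in each). An edgeR test of whether the tissue difference is unequal among the 6 classes called 3 of 10859 genes (0.0276%), and none of the 4 receptors tested (adjusted p = 1 for each by edgeR).

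The signalling genes behind the receptors were followed as 7 lists of 55 genes, of which 52 passed the filter across classes. None of them was called between the tissues by edgeR with all 4 libraries and tissue as the term, in any of the 6 classes, out of 54, 43, 40, 48, 51 and 47 tested. With the replicate number added as a block, Adcy3 and Adcy9 were called in adipocytes and Adcy9 in macrophages. The adjusted p of Adcy9 was 0.00387 and 4.1e-05 by edgeR, and the labels do not say what equal numbers share. In adipocytes Adcy3 was called without BAT replicate 1, and Nr4a3 and Ppargc1a without BAT replicate 2. In pericytes Nr4a3 was called without taPVAT replicate 2 or without BAT replicate 1. These fits assume that the lone library of a tissue varies like the other 2. In adipocytes both taPVAT libraries lay below both BAT libraries for 4 of the 54 (beside 10.7% of all genes) and above them for 3 (9.06%). One of the 4, the adenylyl cyclase Adcy9, picked after its values were seen, was at 398, 282, 942 and 544 CPM in adipocytes. Its libraries did not overlap in the other classes either, lower in taPVAT as for 11.2% of genes in fibroblasts, 13.2% in smooth muscle, 10.2% in pericytes, 8.68% in endothelial nuclei and 12.1% in macrophages. The classes share adipocyte RNA, so they are not separate observations of Adcy9. Across classes many of the 52 differed. Adipocytes had 24 higher and 18 lower (28.7% and 28.3% of all genes), and fibroblasts 4 and 24 (14.9% and 10.9%). Smooth muscle had 10 and 4 (7.95% and 2.52%) and pericytes 15 and 2 (11.2% and 4.69%). Endothelial nuclei had 11 and 11 (14.5% and 9.25%) and macrophages 12 and 15 (15.7% and 14.7%). The genes named for each class are those called with the smallest p in each direction. For endothelial nuclei and macrophages only genes called higher are named, and the 11 and 15 called lower are not.

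In adipocytes 7 of the 8 tested targets of beta-adrenergic signalling in that cell type were called higher, beside 28.7% of all genes. The list median log2 fold change was 0.55 against 0.03 over all genes. The list was drawn up for adipocytes, so a higher level there may follow from the choice of genes and is not support. Ucp1 was at 898 ± 467 CPM in adipocytes and 588 to 681 CPM on average in the other classes (log2 fold change 0.64, adjusted p = 1.0e-07 by edgeR). Cyclic AMP phosphodiesterases, which end the signal, had 6 of 8 higher and 1 lower, beside 28.7% and 28.3% of all genes. Pde7a was at 257 ± 106 CPM and Pde4a at 71.6 ± 11.9 CPM in adipocytes, while Pde4b, the one called lower, was at 1.31 ± 0.741 CPM against 10.3 to 59.5 CPM on average elsewhere. Of the receptor kinases, arrestins and RGS proteins, which switch receptors or their G proteins off, 6 of 9 were lower and 1 higher in adipocytes (median -1.49). Among these 9, Rgs4 passed the filter on low counts only through pericytes, and Arrb2 and Grk2 only through macrophages. Their adipocyte levels were at most 1.24, 0.773 and 3.09 CPM. A low adipocyte value of these genes was thus set by the filter, which the count and the median include, and is not support. Arrb1 (beta-arrestin) was at 8.67 ± 5.66 CPM in adipocytes and 155 ± 32.7 CPM in macrophages. Gnai2, a Gi subunit, was at 18.3 ± 2.09 CPM in adipocytes and 113 ± 53.7 CPM in endothelial nuclei.

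Smooth muscle, where Adra1b was found, stood out in Adcy5, an adenylyl cyclase, at 551 ± 137 CPM against 56.9 to 169 CPM on average in the other classes (log2 fold change 2.76, SE 0.12, adjusted p = 3.5e-15 by edgeR). Pde4b (59.5 ± 31.6 CPM) and Gnai1 (55.4 ± 21.2 CPM) were higher there too. Grk5, a receptor kinase, was lower at 393 ± 105 CPM, and so was Pde7b at 851 ± 302 CPM. Grk2, the other receptor kinase called lower, had no UMI in smooth muscle, a count that allows up to 1.82 CPM over the class, and 14.02 ± 3.88 CPM in macrophages. It passed the filter on low counts only through macrophages, so its call in smooth muscle is not support.

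Pericytes had 5 of 7 adenylyl cyclases and 5 of 9 receptor kinases, arrestins and RGS proteins called higher, beside 11.2% of all genes, with list medians of 0.72 and 0.78 against -0.03 over all genes. Rgs4, which shortens Gq and Gi signals, was at 113 ± 41.5 CPM in pericytes and at most 4.38 CPM on average elsewhere (log2 fold change 5.79, SE 0.18, adjusted p = 1.2e-17 by edgeR). It passed the filter on low counts only through pericytes, every sum of the other classes being at or below 7.80 CPM. The filtered fit thus had to show Rgs4 higher there, and its call among the 5 of 9 is not support. Grk5 was at 991 ± 190 CPM, and Prkca, a protein kinase C, at 167 ± 30.5 CPM. Lower in pericytes were Pde8a at 132 ± 24.9 CPM and Plcb1, a phospholipase C of the Gq arm, at 66.9 ± 27.7 CPM.

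Fibroblasts were higher in Adcy2 (31.2 ± 7.21 CPM against at most 10.4 CPM on average elsewhere), Prkca (299 ± 87.8 CPM) and Itpr3, an inositol trisphosphate receptor (14.1 ± 4.003 CPM). They were lower in Adcy5, Itpr1 and Rgs3, and 24 of their 52 tested genes were lower in all. Outside fibroblasts Adcy2 was above 3.83 CPM only in pericytes, at 11.2, 12.0 and 14.7 CPM in all libraries but taPVAT replicate 1. It thus passed the filter on low counts only through its fibroblast sums, and its call there is not support. Endothelial nuclei were higher in Plcb4 (766 ± 137 CPM), Adcy4 (61.3 ± 27.7 CPM) and Rgs3 (138 ± 24.1 CPM). Genes called higher there made up 14.5% and genes called lower 9.25% of all tested. Macrophages were higher in Prkcb (193 ± 42.5 CPM), Grk3 (79.5 ± 22.7 CPM) and Arrb2 (15.8 ± 3.22 CPM), beside 15.7% of genes called higher and 14.7% lower. Arrb2 passed the filter on low counts only through macrophages, every other sum being at or below 1.80 CPM. The filtered fit thus had to show it higher there, and its call is not support. Grk2, at or below 6.56 CPM in every sum outside macrophages, was in the same position. So were Plcb2 and Adcy7, at or below 5.76 and 8.06 CPM outside macrophages. Any call of these genes as higher in macrophages is not support either. Of 9 receptor kinases, arrestins and RGS proteins 5 were higher in macrophages, with a list median of 1.45 against -0.05 over all genes. Arrb2 and Grk2 are among the 9, so this count and median are in part set by the filter.

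**Figure D5:**
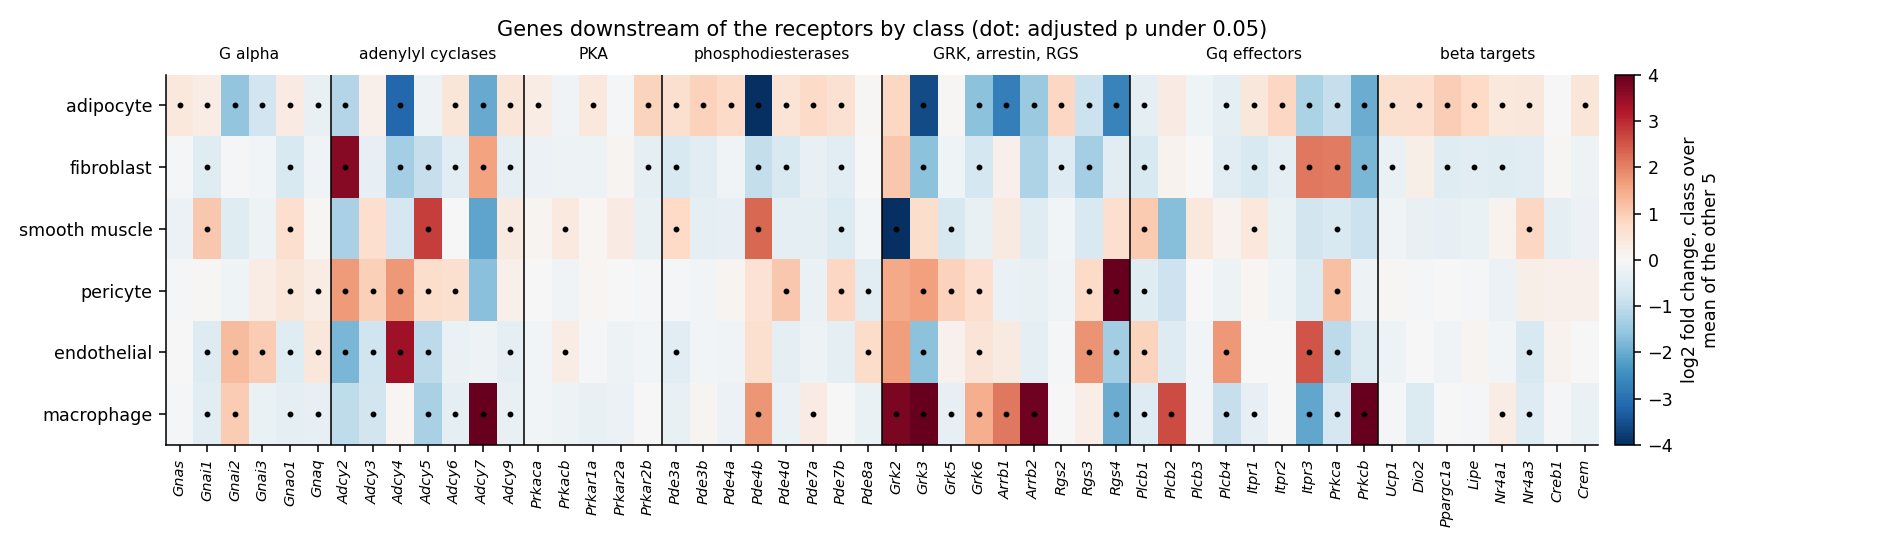
Log2 fold change of 52 signalling genes (columns, grouped by list) in each class against the mean of the other 5 (rows), in colour clipped at 4 in either direction, with a dot where the adjusted p by edgeR is under 0.05. In adipocytes 7 of 8 beta-adrenergic targets (a list drawn up for adipocytes) and 6 of 8 phosphodiesterases are called higher and 6 of 9 kinases, arrestins and RGS proteins lower. Of these 9, Arrb2 and Grk2 passed the filter on low counts only through macrophages. In pericytes 5 of 7 adenylyl cyclases are called higher, and so is Rgs4, which passed the filter on low counts only through pericytes.

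For each receptor with at least 100 UMIs the 3 genes with the most similar pattern were taken, by Pearson's r of log2(CPM + 1) over the 24 sums. The sums of 1 library share their depth, and the classes share adipocyte RNA, so r is a description. Adra1a was nearest to Tmem106b (r = 0.94), Kansl3 (0.92) and Ube4b (0.92). Adra1d was nearest to Pick1 (0.94), Cenpn (0.94) and LOC501233 (0.94). Adrb3 was nearest to Srebf1 (0.95), the lipogenic transcription factor SREBP1, Aspa (0.93) and Prpf4b (0.91). Adrb1 was nearest to Tax1bp1 (0.95), AABR07043098.2 (0.94) and Herc4 (0.94).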

How the data were processed

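The deposited files hold raw counts of UMIs per gene and barcode. Per the file headers they were made by the authors with Cell Ranger 7.1.0, and per the submitters' processing notes with the build Rnor_6.0. Not given in the sources used here are its intron and strand settings.

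Barcodes with at least 500 genes were kept. Doublets were scored with Scrublet in scanpy 1.11.5, at an expected 0.8% per 1000 barcodes, and 6.61% to 18.5% of barcodes were removed. In BAT replicate 1 the caller marked 0 of 34553 and was judged to have failed, so the 6402 highest scores were removed. A nucleus entered a class with UMIs of at least 3 markers of its list and 2 more than of any other list, where markers found in over 10% of nuclei were not used. An adipocyte needed 6 adipocyte markers and at most 1 of any other list. As an alternative, Leiden clustering (leidenalg 0.10.2, resolution 1.5, 30 principal components) gave 34 clusters, named by the same lists, without the receptors.

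UMIs were summed per library and class. All genes were tested by quasi-likelihood in edgeR 4.0.16 (R 4.3.3), scaled by TMM, filtered by filterByExpr and adjusted by Benjamini-Hochberg over each fit, and an adjusted p under 0.05 is called. Tissues were compared within a class, and classes with the library as a term. Alternatives were DESeq2 1.42.0, RLE factors, no filter, no doublet removal, classes from clusters, each library left out and the replicate number as a block. Scripts were tested on simulated data. Counting error alone is covered by the Poisson intervals (95%) and by the limit of 3 UMIs used where a count is 0. The members, the marker lists and the signalling lists were chosen with earlier results of these data known. The rule for named genes takes all 8 receptors, up to 3 called signalling genes with the smallest p per class and direction, and the 3 most similar genes per receptor.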

Additional observations from a re-analysis of the deposited data

Results flagged for a closer look

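Adra1b UMIs were found in a class outside the comparisons. The mesothelial clusters held 34 Adra1b UMIs in taPVAT replicate 1 and 15 in taPVAT replicate 2, above the limit that a count of 0 would allow. BAT, where no such cluster was found, gives no value to set beside them.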

How the results depend on the processing

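With 2 libraries a tissue, counts of called genes moved with the settings, while the calls of Adra1a, Adra1d and Adrb3 in adipocytes held in every alternative run. Between the tissues, in place of 0 called genes in adipocytes, DESeq2 called 62, the fit with no filter 40 and leaving out a library 0 to 107. In fibroblasts, in place of 6, DESeq2 called 31, no filter 121, clusters 3 and leaving out a library 13 to 100. In smooth muscle, in place of 0, no filter called 1 and leaving out a library 0 to 2. In pericytes, in place of 0, DESeq2 called 4, RLE factors 1, no filter 50, clusters 3 and leaving out a library 9 to 67. In endothelial nuclei, in place of 0, DESeq2 called 10, no filter 58 and leaving out a library 0 to 13. In macrophages, in place of 0, DESeq2 called 1, no filter 23 and leaving out a library 0 to 9. Across classes, clusters called 1851 in fibroblasts (in place of 2806), 3921 in pericytes (1720) and 5134 in endothelial nuclei (2583), no filter called 1808 in smooth muscle (1137), and leaving out a library 731 to 1281 there. For the difference among classes, in place of 3, no filter called 172, clusters 5 and leaving out a library 0 to 190, the most without taPVAT replicate 1. The cause was not tested for any of these.

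With the replicate number as a block the tissue fits called 287 genes in adipocytes, 80 in fibroblasts, 0 in smooth muscle, 4 in pericytes, 27 in endothelial nuclei and 92 in macrophages, and no receptor. Among the signalling genes it called Adcy3 and Adcy9 in adipocytes and Adcy9 in macrophages (adjusted p of Adcy9 0.00387 and 4.1e-05 by edgeR), and none in the other 4 classes. The labels do not tie equal numbers to one animal or day, and with 2 pairs the deviations of same-numbered libraries correlated at 0.616, 0.351, 0.177, 0.381, 0.515 and 0.537 across genes, in that order of classes.

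Receptor log2 fold changes between tissues turned positive for Adrb1 in adipocytes with the block (0.19) and for Adra1a with clusters in pericytes (0.0621) and endothelial nuclei (0.0787). Against the other classes, clusters gave 0.0595 in fibroblasts, 0.26 in smooth muscle and 0.80 in macrophages for Adra1a and 0.0001 in smooth muscle for Adra1d. In macrophages Adra1d was -0.0093 with no filter and -0.0089 without doublet removal, and Adrb3 -0.0065 without doublet removal. Of these, only Adra1a in macrophages was called, with clusters (adjusted p = 0.00396 by edgeR). Leaving out a library, values between tissues crossed 0 for Adrb1 (-1.81 to 2.37) and Adrb3 (-0.92 to 0.12) in adipocytes, Adra1a in fibroblasts (-1.25 to 0.20), pericytes (-0.29 to 0.13), endothelial nuclei (-0.50 to 0.16) and macrophages (-0.0432 to 0.43), Adra1d (-0.19 to 0.52) and Adrb3 (-0.96 to 0.0445) in pericytes and Adrb1 in endothelial nuclei (-1.52 to 0.51). Between classes this held for Adra1a in smooth muscle (-0.11 to 0.08) and Adra1d in macrophages (-0.0783 to 0.14). In all, 363 of the receptor values under an alternative kept their direction and side of the threshold, 26 changed sign, 14 passed the threshold only there and 5 lost it. Depth limits the alpha-2 receptors outside adipocytes and every receptor in the 15 smooth muscle nuclei of taPVAT replicate 2.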
